A study of Mus musculus with 15 samples.

Results

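Ttr and 8 further genes of the choroid plexus and of ciliated cells were followed in day 12 organoids that carry both a B6 and a Spret copy of the genome. The genes were Ttr, Folr1, Kcnj13, Aqp1, Kl, Enpp2, Clic6, Foxj1 and Otx2, a list chosen with earlier results of these data known. All 9 had a row among the 44260 genes of the table. The organoids were grown from epiblast stem cells of SpretB6 lines, hybrids of C57Bl/6J (B6) and Mus spretus (Spret), as a model of the developing cerebral cortex, per the growth protocol and the name of the table, whereas the tissue label of the samples reads epiblast stem cells. The samples titled SpretB6_C1, SpretB6_C2 and SpretB6_C3 gave 3 bulk RNA libraries, called libraries 1 to 3 here, in which every gene has one value per allele. No treatment group or other genotype was among these libraries, and the 12 stem cell samples of the series, 3 from each of 4 crosses, were not analysed here. The labels do not say whether separate cultures were used. The p-values therefore concern these 3 libraries alone, and part or all of their spread may be technical. The error of each gene also draws on the variance of the other tested genes, with 2 residual degrees of freedom and 12.3 from that prior. The values are read numbers that the authors normalised and rounded. They summed to between 2413876 and 3027078 per library from B6 and between 2088788 and 2639912 from Spret.

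The choroid plexus is a folded epithelium that grows from the dorsal midline of the brain, next to the cortical hem, and secretes cerebrospinal fluid. Its cells make and secrete Ttr, a carrier of thyroid hormone and of retinol binding protein, at very high levels, and move ions, water and folate between blood and fluid. Otx2 is a homeodomain transcription factor needed for its formation, and Foxj1 is the forkhead factor that switches on the genes of motile cilia. Each hybrid cell holds both alleles of an autosomal gene, so the share of RNA that comes from Spret is read within the same cells.

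RefSeq starts on GRCm38.p6 were matched for 4 of the 9 genes, with 1 window each for Kcnj13, Kl and Aqp1 and 4 for Otx2. The 250 bases before each start were searched on both strands for TAATCC, a core of bicoid-type homeodomain sites such as those of Otx2, for GTTGCC, a core of the sites of RFX factors, and for GTAAACA, a forkhead core. The windows of Aqp1 and of the outermost Otx2 start are shown. Both genes were at least 2-fold higher in library 1 than in both other libraries, as were Ttr, Folr1, Clic6 and Foxj1, which have no window here. Both windows shown hold GTTGCC. The windows of Kcnj13, of Kl and of the Otx2 starts at 48665109 and 48662734 do not. A relation between these letters and the level of a gene was not tested. Capitals mark GTTGCC. The Aqp1 window lies at chr6:55336049-55336298 on the plus strand, and its match begins 111 bases before the start. The Otx2 window lies at chr14:48667645-48667894 on the minus strand, and its match begins 41 bases before the start.
Aqp1: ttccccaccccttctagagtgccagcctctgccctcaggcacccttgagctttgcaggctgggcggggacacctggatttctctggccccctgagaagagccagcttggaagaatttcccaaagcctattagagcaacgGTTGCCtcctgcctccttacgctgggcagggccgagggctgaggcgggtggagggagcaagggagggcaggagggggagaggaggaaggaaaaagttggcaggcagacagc
Otx2: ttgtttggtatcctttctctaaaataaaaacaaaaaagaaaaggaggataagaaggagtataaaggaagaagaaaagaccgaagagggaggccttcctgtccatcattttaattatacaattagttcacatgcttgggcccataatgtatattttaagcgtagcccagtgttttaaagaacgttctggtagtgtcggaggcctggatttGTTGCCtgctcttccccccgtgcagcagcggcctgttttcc
GTTGCC was found in 3 of the 7 windows, 1 of Aqp1 and 2 of Otx2, and in 10.4% of all 32851 windows. The 2 Otx2 windows that hold it overlap each other and share a match. TAATCC was found in 1 window, before an inner start of Otx2, against 6.25% of all windows, and GTAAACA in 0 windows against 3.17%. A match describes the letters and is not evidence of binding.

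Ttr was the most abundant of the 9 genes, and its level differed widely between the libraries. Its B6 value was 1989 in library 1, 413 in library 2 and 238 in library 3, and its Spret value was 566, 121 and 85 in the same order. Library 1 was high for both alleles, and the lowest B6 value of Ttr in any library lay above the Spret values of libraries 2 and 3. Summed over both alleles, Ttr stood at 2555, 534 and 323, a mean of 1137 ± 1232 (SD, n = 3), so that the highest library held 7.91 times the lowest. Ttr held 75.2% of the summed value of the 9 genes in library 1, 60.8% in library 2 and 55.4% in library 3.

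The transport genes Folr1, Aqp1 and Clic6 followed the same order of libraries, while the channel gene Kcnj13, given below, did not. The B6 values of Folr1, the folate receptor of the choroid plexus, were 34, 17 and 8 in libraries 1, 2 and 3, and its Spret values were 45, 14 and 5. For Aqp1, a water channel of the apical membrane, they were 30, 11 and 5 from B6 and 28, 9 and 3 from Spret. For Clic6, a member of the intracellular chloride channel family, they were 73, 28 and 11 from B6 and 36, 15 and 6 from Spret. In these 3 genes library 1 was highest and library 3 lowest for either allele, and the summed value of library 1 was 6.08, 7.25 and 6.41 times that of library 3. Of the Slc and Slco transporters on a wider choroid plexus list, Slc4a5 and Slco1c1 had this order of sums as well. Slc12a2 (555, 463 and 548), Slc29a4 (338, 315 and 378) and Slc13a4 (35, 14 and 16) did not.

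The regulators were also highest in library 1. Foxj1 read 146, 50 and 40 from B6 and 136, 52 and 28 from Spret in libraries 1, 2 and 3, a summed mean of 151 ± 115 (SD, n = 3). Otx2 read 76, 32 and 32 from B6 and 68, 24 and 18 from Spret, with a summed mean of 83.3 ± 52.6. Library 1 stood 2.76 and 4.15 times above libraries 2 and 3 for Foxj1, and 2.57 and 2.88 times above them for Otx2.

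In the remaining 3 genes library 1 was less than 2-fold above at least one other library. Enpp2, the secreted enzyme autotaxin that makes lysophosphatidic acid, read 87, 37 and 50 from B6 and 44, 23 and 28 from Spret, so library 1 was highest and library 2 lowest. Kcnj13, an inward rectifier potassium channel, read 10, 1 and 7 from B6 and 12, 8 and 11 from Spret, again with library 1 highest and library 2 lowest. Kl, the co-receptor klotho, read 14, 15 and 2 from B6 and 5, 8 and 6 from Spret, and library 2 was its highest. Kcnj13 and Kl had a mean of 8.17 and 8.33 over the 6 allele columns, under the minimum of 10 set for testing, and the lowest tested gene of the 9 was Aqp1 at 14.3. Kcnj13 lies wholly inside Gigyf2 on the opposite strand (chromosome 1, 87386363 to 87394729, mm10). Gigyf2 summed to 417, 349 and 481, and with the use of strand in counting not given in the sources used here, reads of the pair cannot be told apart. The same holds for Folr1, which overlaps Anapc15 on the opposite strand, with sums for Anapc15 of 182, 175 and 161, and for Otx2, which overlaps Otx2os1 with sums of 12, 15 and 6. Neither partner was at least 2-fold higher in library 1 than in both other libraries.

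**Figure D1:**
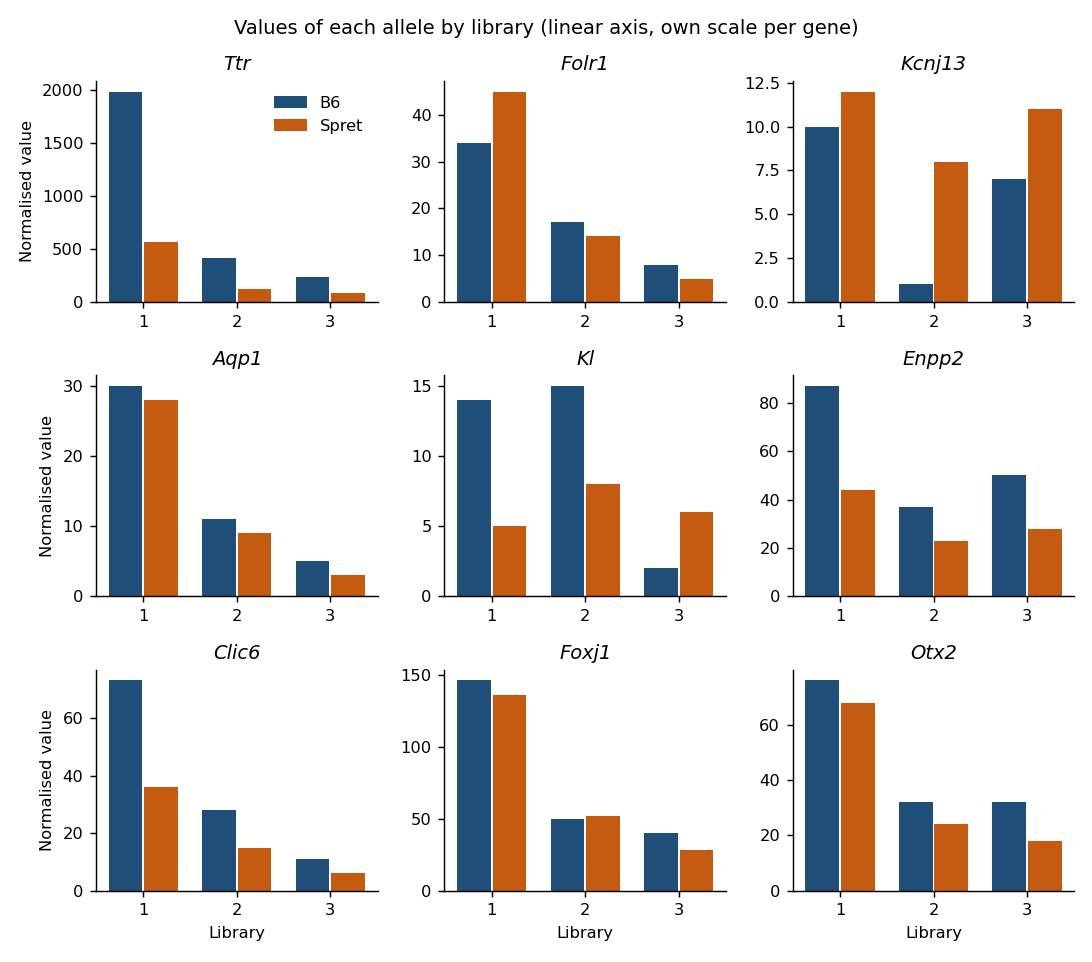
Normalised value from B6 (blue) and from Spret (orange) in libraries 1, 2 and 3 for each of the 9 genes, on a linear axis that starts at 0 with its own scale per gene. Library 1 is highest for both alleles in every gene but Kl, and the B6 bar of Ttr is above its Spret bar in every library (1989 and 566, 413 and 121, 238 and 85).

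Per kilobase of annotated exon, the summed value of Ttr was 959 ± 1039 (mean ± SD, n = 3), followed by Foxj1 at 57.4 ± 43.8, Otx2 at 19.7 ± 12.5 and Folr1 at 17.8 ± 14.9. Enpp2 followed at 15.5 ± 6.39, Clic6 at 14.4 ± 12.1, Kcnj13 at 12.9 ± 5.24, Aqp1 at 10.9 ± 9.94 and Kl at 1.79 ± 0.833. Each step between neighbours in this order of levels was smaller than the larger of their SDs. Within a library Ttr stood above the other 8 genes in all 3, at 2154, 450 and 272 per kilobase against 108, 38.9 and 25.9 for Foxj1. Reads that could not be given to an allele are not counted, so the number of differences between the strains within a gene also enters these levels.

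The rise in library 1 was rare among genes as a whole. In 6 of the 9 genes (Ttr, Folr1, Aqp1, Clic6, Foxj1 and Otx2) the summed value of library 1 was at least 2-fold above both other libraries. Of all 15985 tested genes, 58 met that rule, or 0.363%, and these 6 were among the 58. Scaled to each library's total, the rule held for 53 tested genes (0.332%) and again for 6 of the 9. Aqp1 passed the minimum for testing only through library 1, the library where it was high. With the minimum set on libraries 2 and 3 alone, an alternative chosen after seeing the data, 5 of 6 genes (Ttr, Folr1, Clic6, Foxj1 and Otx2) met the rule, against 32 of all 16096 genes (0.199%). The median gene differed 1.41-fold between its highest and lowest library, and 33 tested genes differed by at least as much as Ttr. Libraries are single samples of 1 group, so no test was made of these differences. The 9 genes were chosen with earlier results of these data known. Their share beside that of all genes is thus a description of the chosen genes only. In bulk RNA, fewer cells of a type and less RNA per cell cannot be told apart.

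**Figure D2:**
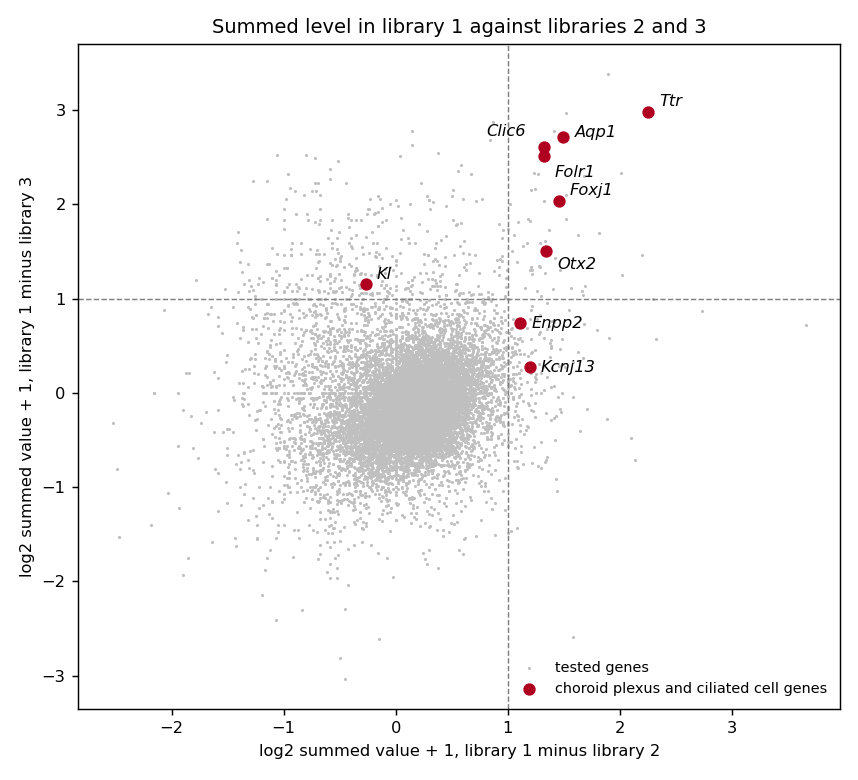
Difference of log2(summed value + 1) between library 1 and library 2 (x axis) and between library 1 and library 3 (y axis) for all 15985 tested genes (grey) and the 9 genes described (red, named). Dashed lines mark a log2 difference of 1, and 6 of the 9 genes (Ttr, Folr1, Aqp1, Clic6, Foxj1 and Otx2) lie above both lines.

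Motile cilia and cortical hem genes also held members with that profile, among those tested. It was met by 6 of 27 motile cilia genes (Cfap44, Rsph1, Cfap126, Rsph4a, Lrrc23 and Mlf1) and by 5 of 11 cortical hem genes (Rspo2, Lmx1a, Bmp7, Wnt8b and Msx1). Mlf1 and Msx1 passed the minimum only through library 1, and with the minimum set on libraries 2 and 3 the counts were 5 of 25 and 4 of 9. Of a wider choroid plexus list 3 of 17 genes met the rule (the tight junction gene Cldn1, the Wnt and Bmp antagonist Sostdc1 and the sulfate transporter Slc13a4). All 3 passed the minimum only through library 1, and with the minimum set on libraries 2 and 3 the count was 0 of 13. The lists too were chosen with earlier results of these data known, so their counts are descriptions. These 3 lists and the 6 genes above made up 20 of the 58. The 38 others, seen only after their values were known, included Trpm3 and Kcne2, a cation channel and a potassium channel subunit that choroid plexus is known to express. Trpm3 summed to 697, 269 and 210 and Kcne2 to 85, 29 and 10 in libraries 1, 2 and 3. Kcne2 too passed the minimum only through library 1.

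The profile of Ttr over the 3 libraries was compared with those of 9231 genes whose summed value averaged at least 100, as the Euclidean distance of centred log2 values. The nearest was Sulf1, an extracellular heparan sulfate sulfatase, at a distance of 0.67, with summed values of 500, 174 and 116. Foxj1 came next at 0.72, then Trpm3 at 0.91, the axonemal dynein Dnah6 at 1.09 (204, 111 and 27) and the cilia gene Cfap44 at 1.17 (283, 116 and 111). Foxj1 (282, 102 and 68) and Dnah6 reached the average of 100 only through library 1, where they were high. With 3 libraries this is a description of likeness and says nothing of shared control.

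Lists of markers of other tissues held 0 tested genes with that profile. A list of 21 endoderm and liver genes, tissues that also make Ttr, summed to 247, 360 and 169 in libraries 1, 2 and 3, with 0 of 21 genes meeting the library 1 rule. Its highest gene was Cubn (58, 65 and 24), while Afp stood at 8, 23 and 1 and Alb at 3, 10 and 3. For the pigment epithelium and eye, which share Otx2, Ttr and Kcnj13 with choroid plexus, 14 genes summed to 304, 323 and 173, led by Rlbp1 (95, 76 and 65), with Rpe65 at 2, 7 and 0 and Tyr at 4, 13 and 4. Here too 0 of 14 met the rule, although Mitf, a regulator of pigment cells, had the order of Ttr at 65, 33 and 19. Only 2 of the 21 and 4 of the 14 genes reached the minimum for testing, and 0.363% of all tested genes met the rule. Counts of 0 in lists this small say nothing of the source of Ttr.

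Further lists had their highest sum in different libraries. The 7 endothelial and blood genes found summed to 143, 188 and 70, led by Kdr (65, 43 and 18), the 5 oligodendrocyte genes to 232, 230 and 318, led by Mog (76, 96 and 107), and 12 mesenchyme and neural crest genes to 637, 587 and 528, led by Dcn (180, 150 and 194). The 10 epiblast genes summed to 141, 188 and 98, led by Pou5f1 (57, 63 and 13), and 10 genes of diencephalon and midbrain to 726, 509 and 451, led by Lhx9 (412, 270 and 254). That last list had the order of Ttr, with library 1 highest in 7 of its 10 genes. The sums of the mesenchyme and neural crest list and of a dorsal forebrain list had this order as well. In these, library 1 was highest in 3 of 12 and 7 of 12 genes. The labelled cortical identity was present in all libraries, with 12 dorsal forebrain genes at 11983, 11638 and 9580 and Neurod6 at 4730, 4871 and 3177. In library 2 the median gene of the table read 6 from B6 and 5 from Spret, against 3 and 3 in library 1 and 3 and 2 in library 3. Low values were thus higher in library 2, and their part in the values of Kl, Kcnj13 and the low markers, Afp, Alb and Tyr among them, was not tested.

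Ttr was assigned mostly to the B6 allele, in every library. From B6 it read 880 ± 964 and from Spret 257 ± 268 (mean ± SD, n = 3), and the Spret share of its summed value was 22.2%, 22.7% and 26.3% in libraries 1, 2 and 3. Each library was thus well under an equal share, while its level spanned 7.91-fold. The log2 ratio of Spret to B6, after adding 1 to each value, was -1.68 ± 0.09 (SE), a 3.21-fold excess of B6 on that scale, with a ratio below 0 in 3 of 3 libraries (limma adjusted p = 7.03e-10). The test pairs the alleles within a library. Without the pairing the adjusted p was 0.217, since the spread of Ttr between libraries then enters the error. With the pairing kept, the limma adjusted p was 0.00418 without the trend and 0.00924 with no filter on low values. The size of the p-value thus depends on variance shared with other genes. Of 15221 tested autosomal genes, 224 leaned to B6 as far as Ttr or farther, itself among them. A reverse cross was not analysed here, and effects of strain and of parental origin therefore cannot be told apart in any of these ratios. How reads were aligned to mm10 and given to an allele is not stated in the sources used here. The part of that step in the ratios was not tested. Of all tested genes, 22.8% were called toward B6 and 7.56% toward Spret.

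The epithelial genes Enpp2 and Clic6 also leaned to B6. Enpp2 averaged 58.0 ± 25.9 from B6 and 31.7 ± 11 from Spret (SD, n = 3). Its log2 ratio was -0.81 ± 0.21 (SE, limma adjusted p = 0.00938). Clic6 averaged 37.3 ± 32.0 from B6 and 19.0 ± 15.4 from Spret, and its log2 ratio was -0.88 ± 0.28 (adjusted p = 0.0296). In both genes the ratio was below 0 in 3 of 3 libraries. These calls were near the threshold. That of Enpp2 ended without library 1 (adjusted p = 0.112) and without library 3 (0.0549). That of Clic6 ended without library 1, 2 or 3 (0.203, 0.069 and 0.0525) and when each library's ratios were centred on their median (0.0645). Both ended without the pairing (0.192 and 0.499) and with no filter on low values (0.0806 and 0.0986).

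Folr1, Aqp1 and the regulators Foxj1 and Otx2 were not called. Their log2 ratios were -0.15 ± 0.33, -0.31 ± 0.36, -0.18 ± 0.18 and -0.45 ± 0.23 (SE), with limma adjusted p-values of 0.769, 0.547, 0.482 and 0.159. At the SEs of Folr1 and Aqp1 a ratio as far from 0 as that of Enpp2 would not have passed the adjusted threshold, so a difference of that size was not detectable in them at this depth. In all, 3 of 7 tested genes were called, all toward B6, against 30.4% of all tested genes called, 22.8% toward B6 and 7.56% toward Spret. Of autosomal tested genes 28.3% were called, 20.6% toward B6. Among the 7 genes limma gave 3 toward B6 and 0 toward Spret at an unadjusted p under 0.05. The median log2 ratio of the 7 genes was -0.45, against -0.14 over all tested genes. Centring removed medians of -0.14, -0.14 and -0.13 from libraries 1, 2 and 3, and 2 of the 7 were then called.

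The Spret share of Ttr varied little beside its level. The highest and lowest of its log2 ratios over the libraries were 0.34 apart, against a median of 0.49 over all tested genes. Its level differed 7.91-fold, against a median of 1.41-fold. Ttr rests on more reads than the other 8 genes, so its ratio also has the least counting error. From an estimate of the reads behind each value, the 95% Wilson intervals of the share were 20.5% to 23.9% in library 1, 18.9% to 26.9% in library 2 and 22.5% to 30.4% in library 3. They rest on about 2211, 419 and 480 reads, overlap one another and cover counting error only. For Clic6 the shares were 33.0%, 34.9% and 35.3% over a 6.41-fold range of level, and for Enpp2 they were 33.6%, 38.3% and 35.9%. In these 3 genes, those called toward B6, the library with the highest level had the lowest Spret share.

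Folr1, Aqp1 and Otx2 had the opposite order, with the highest Spret share in library 1. Their shares in libraries 1, 2 and 3 were 57.0%, 45.2% and 38.5% for Folr1, 48.3%, 45.0% and 37.5% for Aqp1 and 47.2%, 42.9% and 36.0% for Otx2. Foxj1 stood at 48.2%, 51.0% and 41.2%. The 3 Wilson intervals overlapped within each of the 9 genes, among them 45.5% to 68.4% and 19.1% to 59.0% for Folr1 in libraries 1 and 3. With 3 libraries a relation between share and level cannot be tested by a correlation, and none is given.

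Ttr stood apart from the sum of the other 8 genes in each library. Summed over those 8 genes, the Spret share was 44.3%, 44.5% and 40.4% in libraries 1, 2 and 3 (43.1% ± 2.32, SD, n = 3), at summed values of 844, 344 and 260. The share of Ttr was 23.7% ± 2.27 (SD, n = 3), and the ranges of the 3 libraries did not overlap. The log2 ratio of Ttr was lower than that of the 8 genes summed by 1.48, 1.44 and 0.92 in libraries 1, 2 and 3. With 3 libraries an exact two-sided sign-flip test cannot go below p = 0.25, so this difference was not tested. Single genes were not all set apart from Ttr. In library 1 the Wilson interval of Kl (10.2% to 49.5%) took in that of Ttr. In library 3 those of Clic6 (20.2% to 55.5%) and Enpp2 (28.0% to 45.3%), among others, overlapped that of Ttr, while that of Foxj1 (32.1% to 50.9%) did not.

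**Figure D3:**
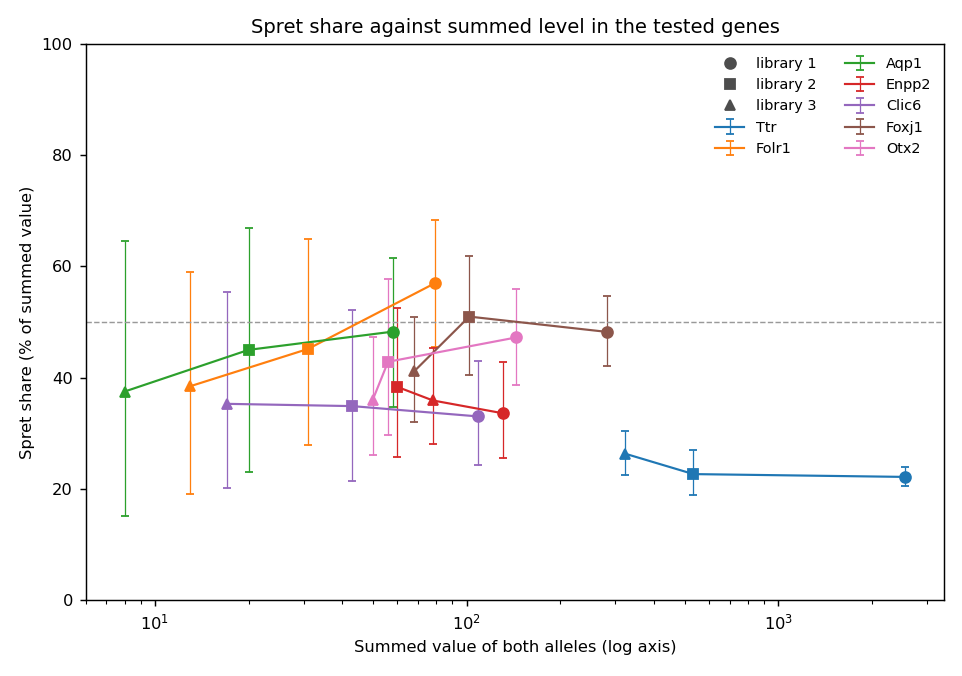
Spret share of the summed value (y axis, in %) against the summed value of both alleles (x axis, log scale) for the 7 tested genes, with a symbol per library, a line joining the libraries of a gene and bars for 95% Wilson intervals from estimated reads. Ttr lies between 22.2% and 26.3% from a summed value of 323 to 2555, and the dashed line marks equal shares.

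Genes next to the called ones differed in their allelic ratios. Ttr lies on chromosome 18 (20665280 to 20674321, mm10). The nearest tested gene after it, B4galt6, a galactosyltransferase gene 10.3 kb away, had a log2 ratio of -0.03 (limma adjusted p = 0.898), and the nearest before it, Gm15328, lies 3842 kb away with a ratio of -1.56 (0.00677) at a mean of 21.7 from B6 and 8 from Spret. Of 4 tested genes within 500 kb of Ttr, 2 were called toward B6, Trappc8 at -0.33 (limma adjusted p = 0.0175) and Rnf138 at -0.35 (0.0223). Both calls ended without any one of the libraries (0.0718 to 0.0876 and 0.0751 to 0.121). B4galt6, next to Ttr, averaged 119 from either allele.

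Enpp2 lies on chromosome 15 (54838901 to 54952892). Its neighbours Mal2 and Taf2 had ratios of -0.15 and 0.00 (limma adjusted p = 0.832 and 0.974). Gm26684, a noncoding RNA gene that overlaps the edge of Enpp2 on the opposite strand, had a ratio of -1.48 (adjusted p = 0.00345) and summed to 33, 71 and 18, where Enpp2 summed to 131, 60 and 78. Reads of the stretch they share cannot be told apart. Clic6 lies on chromosome 16 (92485736 to 92541243) between Rcan1 at -0.23 (0.226) and Runx1 at -0.98 (0.0357). Of 8 tested genes within 500 kb of Clic6, 3 were called, all toward B6, and of 6 near Enpp2 1 was, where 30.4% of all tested genes were called. Counts this small say nothing of a lean of these regions. Among them was Kcne2, 188 kb away, at -1.12 ± 0.35 (SE, adjusted p = 0.0273). Without library 1 Kcne2 fell under the minimum for testing, and without library 2 or 3 its call ended (0.158 and 0.0548). That of Runx1 ended without any of the libraries (0.0549 to 0.259).

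Other choroid plexus genes went both ways between the alleles. Of 17 tested genes, 4 were higher from B6 and 1 from Spret, a share near the 30.4% of all tested genes called. With centred ratios the counts were 3 and 3, where 28.9% of all tested genes were called. Car12, a membrane carbonic anhydrase, was the gene higher from Spret, with 121, 65 and 36 from Spret and 58, 48 and 28 from B6 in libraries 1, 2 and 3 (log2 ratio 0.61 ± 0.20, SE, limma adjusted p = 0.0336). Igfbp2, a secreted binding protein of insulin-like growth factors and the most abundant of the list, averaged 456 ± 125 from B6 and 307 ± 125 from Spret, and its ratio was -0.61 ± 0.08 (adjusted p = 5.18e-05). Ecrg4 and Calml4 had ratios of -1.55 and -0.95 (adjusted p = 0.0107 and 0.0401). The serotonin receptor gene Htr2c read 77, 32 and 56 from B6 and 0 from Spret in all 3 libraries. It is X-linked, and the lines need not hold both copies of that chromosome, so its call is not read as a difference between alleles, and among the 16 autosomal genes 3 were higher from B6. The median ratio of the 17 genes was -0.20.

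Motile cilia genes, the targets and companions of Foxj1, were called toward B6 in 9 of 27 tested and toward Spret in 0, where limma gave 9 and 1 at an unadjusted p under 0.05. The share called in either direction was near that over all tested genes, 30.4%, or over autosomal ones, 28.3%. Toward B6 these background shares were 22.8% and 20.6%. With centred ratios the counts were 5 and 1. Ccdc40 and Ccdc39, partners that set the spacing of the axoneme, read 156 ± 35.4 and 118 ± 34.4 from B6 and 61.3 ± 19.6 and 66.0 ± 23 from Spret. Their log2 ratios were -1.36 ± 0.17 and -0.85 ± 0.15 (SE, limma adjusted p = 2.05e-05 and 0.000477). Ak7, an adenylate kinase of the cilium, had the lowest ratio at -2.17 ± 0.45 (adjusted p = 0.002), followed by Rsph9 at -1.48, the cyclin gene Ccno at -1.25, Dnaic2 at -1.21, Enkur at -1.09, Rsph4a at -0.88 and Hydin at -0.62, with adjusted p-values from 0.00411 to 0.0411. Rfx3, the most abundant of the list and a regulator of ciliary genes, summed to 450, 396 and 499 and was not called (-0.21, adjusted p = 0.189). The median of the 27 ratios was -0.24.

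Among 11 tested cortical hem genes, 2 were called, both toward B6, a share below the 30.4% of all tested genes. Wnt5a, a Wnt ligand of the hem, read 65.0 ± 11.4 from B6 and 30.3 ± 2.89 from Spret (log2 ratio -1.06 ± 0.22, SE, limma adjusted p = 0.00166), and Rspo3, a secreted Wnt agonist, had a ratio of -0.41 ± 0.13 (adjusted p = 0.0334). At an unadjusted p under 0.05 limma gave the same counts of 2 and 0. With centred ratios 1 was called toward B6 and 0 toward Spret. Axin2, a target of Wnt signalling and the most abundant of the list, was not called (0.05, adjusted p = 0.748). The median of the 11 ratios was -0.30.

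Of the 15 autosomal genes called in these 3 lists, 5 passed the test whichever library was left out, namely Ccdc39, Ccdc40, Dnaic2, Igfbp2 and Wnt5a. Without library 1 the calls of Ak7, Calml4, Car12, Ccno, Hydin, Rsph4a, Rsph9 and Rspo3 ended (limma adjusted p from 0.0523 to 0.324), and Ecrg4 and Enkur fell under the minimum for testing. Without library 2 those of Car12 and Enkur ended (0.0501 and 0.0827), and Ccno fell under the minimum. Without library 3 those of Calml4, Ccno, Ecrg4, Enkur, Hydin, Rsph4a, Rsph9 and Rspo3 ended (0.0612 to 0.242). Over all genes the share called was 16.6%, 25.5% and 20.2% without library 1, 2 or 3, against 30.4% with all of them.

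**Figure D4:**
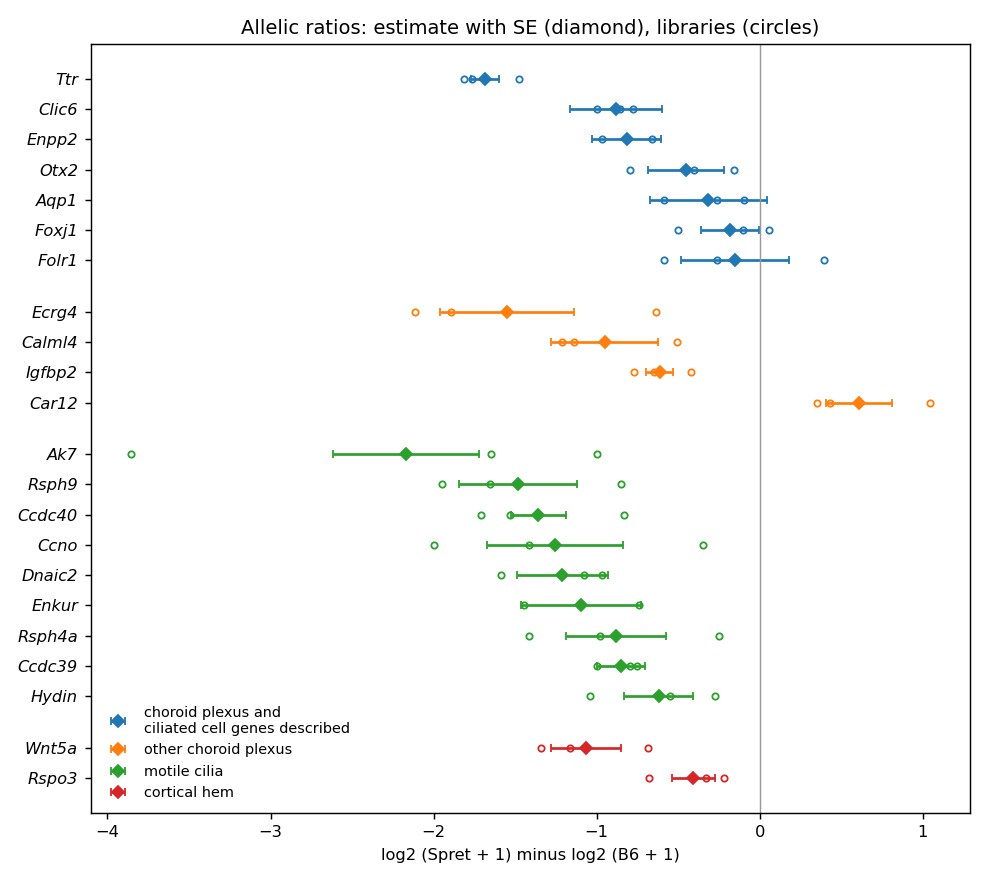
Difference of log2(Spret + 1) and log2(B6 + 1) (x axis) for the 7 tested genes of the 9 and for the called autosomal genes of the wider choroid plexus, motile cilia and cortical hem lists. Diamonds with bars are the limma estimate ± SE and circles the 3 libraries. Ttr has the lowest ratio of the 7 at -1.68, and Car12 is the called gene that lies toward Spret, at 0.61.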

How the data were processed

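Per the labels' protocols, ribosomal RNA was depleted and a depth of 80M reads was aimed at. The build is mm10, per the submitters' processing notes. The deposited values are a score: allele-specific read numbers that the authors normalised and rounded, per the name of the table. Aligner, allele assignment, counting and use of strand are not given in the sources used here. Members and lists were chosen with earlier results of these data known.

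Ratios were log2(Spret + 1) minus log2(B6 + 1), which understates low genes. Genes with a mean of at least 10 over the 6 columns (15985 of 44260) were tested in R 4.3.3 with limma 3.58.1. The model had a term for each library, one for the allele and a trend of the variance with the mean (2 residual degrees of freedom, 12.3 from the prior). P-values are two-sided, with Benjamini-Hochberg adjustment over tested genes and a threshold of 0.05. Both alleles come from the same RNA, which pairs them. The script was tested on simulated data. The rescaling was estimated from which whole numbers hold genes, as factors of 1.156, 1.276 and 0.672 for libraries 1, 2 and 3, or about 4.36M, 3.53M and 8.43M allele-assigned reads. A factor under 1 merges read numbers, so tests for counts were not used, and the reads behind shares are approximate. Positions and exon lengths are from GENCODE M21 (GRCm38). Genes named are the 9, the most abundant of each list, the called genes of the wider choroid plexus, motile cilia and cortical hem lists, the 5 profiles nearest Ttr and the neighbours of called members, and others were chosen after their values were seen.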

Additional observations from a re-analysis of the deposited data

How the results depend on the processing

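Of the 9 genes, 3 were called with the pairing of alleles. Without that replicate block 0 were called by limma (2 at an unadjusted p under 0.05), 1 with no filter on low values, 1 at a mean of at least 50, where 2 were tested, and 1 to 2 when 1 library was left out. In the 3 related lists 16 genes were called (15 autosomal), against 2 with no filter, 6 at a mean of at least 50, where 14 were tested, 5 without the replicate block, 8 without limma's trend and 6 to 16 with 1 library left out. Other causes of these changes were not tested. The ratio of Ttr lay between -1.79 and -1.54 over 10 alternatives and passed the test in 9, all but the one without the block. Of 64 ratios of tested members under alternatives, 52 had the same direction and side of the threshold, 11 lost a call and 1 changed sign, that of Folr1, which ranged from -0.42 to 0.066 with 1 library left out (0.066 without library 3, adjusted p = 0.924). The mean Spret share of Ttr lay within 1 SD of 23.7% under each of its alternatives, from 22.4% to 25.5%, and the count of 6 genes with library 1 at least 2-fold above both others was the same when scaled to library totals and for either allele alone, and 5 with the minimum set on libraries 2 and 3. Depth limits Folr1, Aqp1, Kcnj13 and Kl, with about 7 to 68 reads per library.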
